A study of Homo sapiens with 6 samples.

Results

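MT-ND1, MT-ND2, MT-ND3, MT-ND4L, MT-ND4 and MT-ND5 are the mitochondrially encoded subunits of respiratory complex I whose genes lie on the plus strand of the annotated human mitochondrial genome (mtDNA), the strand read from the heavy-strand promoter. They were taken as the rows on the mitochondrial chromosome whose Ensembl identifiers map to these 6 symbols. The 6 genes were listed in each of the 6 libraries, among 57500 genes in all and 13 protein genes of mtDNA. The material was RNA of a mitochondrial preparation from HepG2, an established liver carcinoma line of epithelial cells labelled as wild type. Control cells received the solvent DMSO, and the other groups received 10 µM or 100 µM GenX, a perfluoroalkyl ether acid used in making fluoropolymers, for 48 h. Each dose had 2 libraries, all carry the same batch label, and nothing in the labels says that they came from separate cultures, so every p-value below measures only the spread between these libraries. HepG2 is a tumour line and stands for normal liver only in part.

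Complex I takes electrons from NADH, passes them to ubiquinone and pumps protons across the inner mitochondrial membrane. All of its mtDNA-encoded subunits sit in the membrane arm: MT-ND2, MT-ND4 and MT-ND5 are its antiporter-like pumping subunits, MT-ND1 lies where ubiquinone binds, and MT-ND3 and MT-ND4L lie between MT-ND1 and MT-ND2. Both strands of mtDNA are transcribed as long RNAs that span many genes, and the transfer RNAs that lie between the messages are cut out to release them. Mature levels therefore depend on cutting and on the stability of each message as well as on transcription. MT-ND4L and MT-ND4 stay together on a shared message. The seventh mtDNA-encoded subunit, MT-ND6, is transcribed from the opposite strand.

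The ends of the 6 genes show how tightly they are packed, and they are given because the boundaries bear on how reads can be assigned. Each line gives the first 30 bases of a gene on GRCh38, 5′ to 3′ on the plus strand, with the start codon in capitals.
MT-ND1, MT:3307-3336: ATAcccatggccaacctcctactcctcatt
MT-ND2, MT:4470-4499: ATTaatcccctggcccaacccgtcatctac
MT-ND3, MT:10059-10088: ATAaacttcgccttaattttaataatcaac
MT-ND4L, MT:10470-10499: ATGcccctcatttacataaatattatacta
MT-ND4, MT:10760-10789: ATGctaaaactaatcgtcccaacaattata
MT-ND5, MT:12337-12366: ATAaccatgcacactactataaccacccta
The start codons include ATA and ATT beside ATG, as the vertebrate mitochondrial code allows. The next lines give the last 30 bases, with the annotated stop codon, or the part of it that the genome encodes, in capitals.
MT-ND1, MT:4233-4262: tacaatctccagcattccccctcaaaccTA
MT-ND2, MT:5482-5511: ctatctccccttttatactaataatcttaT
MT-ND3, MT:10375-10404: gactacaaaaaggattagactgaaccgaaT
MT-ND4, MT:12108-12137: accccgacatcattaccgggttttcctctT
MT-ND5, MT:14119-14148: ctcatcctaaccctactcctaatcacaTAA
MT-ND1, MT-ND2, MT-ND3 and MT-ND4 end in TA or T alone, and polyadenylation of the cut message is known to complete such stops. The junction of MT-ND4L and MT-ND4 is shown with the 7 bases that both genes share in capitals, where ATG opens MT-ND4 and the last 3 capitals close MT-ND4L.
MT-ND4L and MT-ND4, MT:10740-10786: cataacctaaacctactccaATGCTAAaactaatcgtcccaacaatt

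MT-ND1 spans MT:3307-4262 (956 bp) between the transfer RNA genes MT-TL1 and MT-TI. MT-ND2 spans MT:4470-5511 (1042 bp) between MT-TM and MT-TW. MT-ND3 spans MT:10059-10404 (346 bp) between MT-TG and MT-TR. MT-ND4L, at MT:10470-10766 (297 bp), follows MT-TR and runs into MT-ND4, which spans MT:10760-12137 (1378 bp) and ends before MT-TH. MT-ND5 spans MT:12337-14148 (1812 bp), starts after MT-TL2 and meets the opposite-strand gene MT-ND6 at its end. None of these genes has an intron. The 6 genes make up 51.2% of the annotated length of the 13 mtDNA protein genes. Their strands are poor in guanine, which made up 9.50% to 12.1% of each gene, against 35.6% of the opposite-strand gene MT-ND6.

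Depth differed between the groups and limits every comparison. The libraries held 240683 and 60854 counts under DMSO, 43556 and 29350 with 10 µM and 2141282 and 1338397 with 100 µM. The least counted member, MT-ND3, still had 89 to 483 counts in each library, so no value of the 6 genes rests on a count near 0. The preparations also differed in other RNA. Summed CPM (a gene's counts as a share of all gene counts, scaled to a common library total) of the nuclear RNAs MALAT1 and NEAT1 was 138967 and 54491 under DMSO, 482 and 545 with 10 µM and 33494 and 30697 with 100 µM. Of 10 hepatocyte genes, 7 and 6 had a count under DMSO, 7 and 2 with 10 µM and all 10 in both libraries with 100 µM, with summed CPM of 5950 and 12210, 436 and 136, and 10988 and 10819. AFP was at 0 in the controls and at 10 µM. Of 4 leukocyte genes, PTPRC and CD3E were at 0 in all 6 libraries and 1 or 2 others had counts, with a summed CPM of 45.9 to 328. Of 5 fibroblast genes, 2 to 4 had counts in each library. Their summed CPM was 216 and 131 under DMSO, 230 and 307 with 10 µM and 33.6 and 32.9 with 100 µM. The 3 endothelial genes had 4 counts in control replicate 2, 2 in 100 µM replicate 2 and 0 in each of the others. The part of the hepatocyte, leukocyte, fibroblast and endothelial genes in the results below was not tested, nor was that of MALAT1 and NEAT1 in the fitted changes.

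Relative to all gene counts, the counts on the complex I genes were highest at 10 µM. The 6 genes together took 1.56% and 3.91% of all counts under DMSO, 19.5% and 26.7% with 10 µM, and 0.970% and 0.849% with 100 µM. The group means were 2.73% ± 1.66 (SD, n = 2), 23.1% ± 5.09 and 0.910% ± 0.0855. The share was 20.4 percentage points higher at 10 µM than in the controls. The difference was -22.2 points from 10 to 100 µM and -1.82 points from control to 100 µM. The libraries did not overlap in any of the 3 comparisons. With MALAT1 and NEAT1 left out of the total, the means were 2.97% ± 1.65, 23.1% ± 5.09 and 0.940% ± 0.0903 and the differences 20.2, -22.2 and -2.03 points in the same order. The difference between control and 100 µM depended on the controls, at -3.00 points without replicate 1 and -0.646 points without replicate 2. The exact two-sided permutation test gave p = 0.333 for each of the 3 differences, the smallest p that 2 against 2 libraries allow. In a preparation of this kind, less mitochondrial RNA per cell, fewer mitochondria and more RNA from elsewhere cannot be told apart from such shares.

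Among the pumping subunits, MT-ND5, the largest of the 6 genes and the most distal in the membrane arm, stood at 2892 and 11963 CPM under DMSO, 64147 and 83748 CPM with 10 µM and 1181 and 856 CPM with 100 µM. The controls differed by a larger ratio than the libraries of either GenX dose, and the 3 groups did not overlap. Levels of MT-ND4 were 4907 and 11536 CPM under DMSO, 50992 and 73356 CPM with 10 µM, and 5857 and 5421 CPM with 100 µM. Its 100 µM libraries lay between the 2 controls, and MT-ND4 was the only one of the 6 genes whose control and 100 µM values overlapped. MT-ND2 was measured at 3378 and 4601 CPM under DMSO, 26541 and 38160 CPM with 10 µM and 786 and 584 CPM with 100 µM, again with 3 separate groups.

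MT-ND1, the subunit at the ubiquinone site, was counted at 3586 and 6047 CPM under DMSO, 29410 and 41738 CPM with 10 µM and 1590 and 1287 CPM with 100 µM. MT-ND3 had 370 and 2399 CPM under DMSO, 11089 and 14617 CPM with 10 µM, and 61.2 and 98.6 CPM with 100 µM. MT-ND4L had 428 and 2547 CPM under DMSO, 13110 and 15605 CPM with 10 µM, and 226 and 246 CPM with 100 µM. These 2 short genes showed the widest gap between the control libraries, with replicate 2 the higher, and in all 6 genes control replicate 2 was above control replicate 1. The plot of CPM by gene and dose shows this order of the groups.

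**Figure D1:**
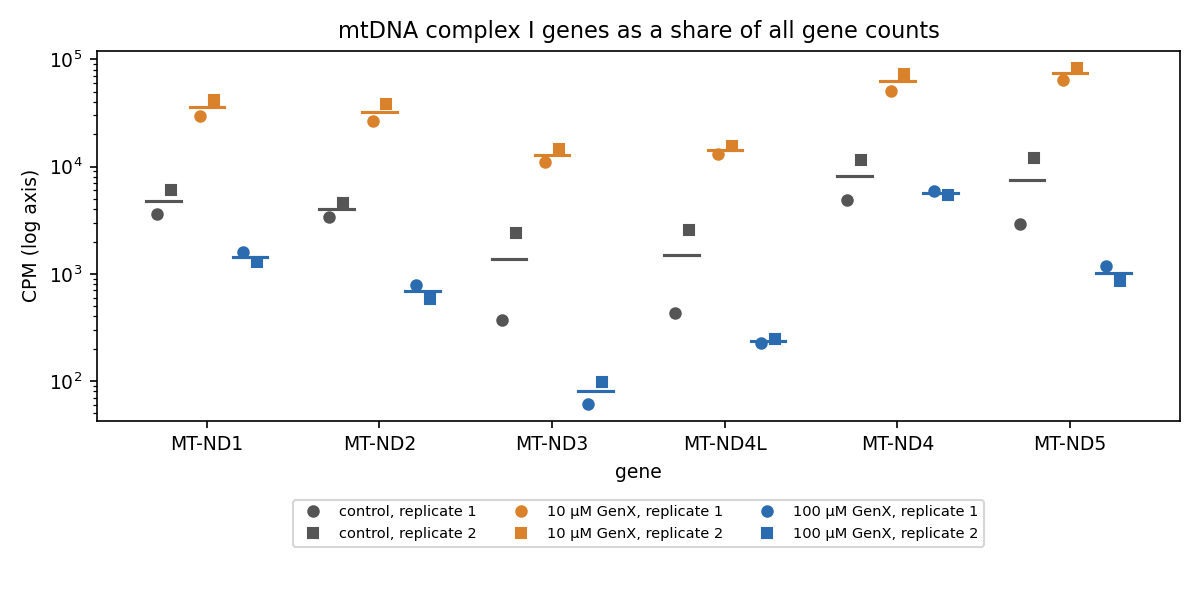
CPM of each gene (log axis) by gene, with 1 point per library coloured by dose and shaped by replicate, and bars at the mean of the 2 libraries. For every gene the 10 µM libraries lie above all others, and for MT-ND4 the 100 µM points lie between the 2 controls.

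At 10 µM against control, 4 of the 6 genes passed edgeR's quasi-likelihood test with Benjamini-Hochberg adjustment over 3180 genes, all higher, where 0.22% of the genes tested were called higher. MT-ND1 rose by 2.68 ± 0.49 (log2 fold change ± SE, adjusted p = 0.0414), MT-ND2 by 2.78 ± 0.51 (adjusted p = 0.0414), MT-ND4 by 2.75 ± 0.44 (adjusted p = 0.0284) and MT-ND5 by 3.22 ± 0.54 (adjusted p = 0.0372), which are 6.40-fold to 9.30-fold. MT-ND3, at 3.16 ± 0.83 (adjusted p = 0.119), and MT-ND4L, at 3.21 ± 0.78 (adjusted p = 0.105), had estimates of the same size with larger errors and did not pass. The 7 genes called higher in this comparison were these 4 and 3 of the 7 other mtDNA protein genes. Both 10 µM libraries were above both controls for 6 of 6 genes, and for 10.3% of all genes tested. The median log2 fold change was 2.97 for the 6 genes, 2.93 for the other mtDNA protein genes and -3.18 for all genes. The count of 4 became 0 without either 10 µM library, with library sizes alone in place of TMM, and with more of the low genes kept, 2 without either 100 µM library, and 6 without either control. The 6 estimates were above 0 under all of these settings. Without control replicate 2 the estimate was 4.20 for MT-ND5, 4.64 for MT-ND3 and 4.59 for MT-ND4L.

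At 100 µM against control, 0 of 6 genes passed the same edgeR test, as did 0% of all genes tested. All 6 had an unadjusted p under 0.05, a threshold at which all genes tested were not counted. The estimates were -3.31 ± 0.55 for MT-ND5 and -3.12 ± 0.51 for MT-ND2 (adjusted p = 0.115 for both), -2.29 ± 0.48 for MT-ND1 (adjusted p = 0.166), -4.51 ± 0.88 for MT-ND3 (adjusted p = 0.166), -3.06 ± 0.78 for MT-ND4L (adjusted p = 0.204) and -1.05 ± 0.42 for MT-ND4 (adjusted p = 0.232). The libraries were lower without overlap for 5 of 6 genes, and for 10.1% of all genes tested. The median log2 fold change was -3.09 for the 6 genes, -1.81 for the other mtDNA protein genes and 0.35 for all genes. DESeq2's Wald test called 5 of the 6 genes lower, beside 171 of all 2933 genes to which it gave an adjusted p. In edgeR's fit without control replicate 2 the estimates were -2.25 for MT-ND5, -2.96 for MT-ND3 and -1.60 for MT-ND4L. With a mean of at least 5 CPM as the filter the MT-ND4 estimate was 0.052.

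At 100 µM against 10 µM, all 6 genes fell in the edgeR test, where 2.11% of all genes tested were called lower. The log2 fold change was -7.67 ± 1.02 for MT-ND3 (adjusted p = 0.00397), -6.53 ± 0.63 for MT-ND5 (adjusted p = 0.00126), -6.28 ± 0.90 for MT-ND4L (adjusted p = 0.00674) and -5.90 ± 0.59 for MT-ND2 (adjusted p = 0.00126). It was -4.97 ± 0.54 for MT-ND1 (adjusted p = 0.00203) and -3.81 ± 0.46 for MT-ND4 (adjusted p = 0.00284), the smallest change of the 6. In linear terms the estimates ran from 14.0-fold lower for MT-ND4 to 204-fold lower for MT-ND3. The 7 other mtDNA protein genes were all called lower as well, with a median of -4.69 against -6.09 for the 6 genes and 3.52 for all genes. The count for the 6 genes went to 0 without either 10 µM library, and with no filter on low counts. The 3 comparisons share libraries, so they are not independent of each other.

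Counts per kilobase (kb) of gene length were then used to compare the genes within a library, since this comparison does not depend on how much of the library mtDNA took. At 10 µM the 6 genes were covered almost evenly. Counts per kb were 1340 and 1281 for MT-ND1, 1109 and 1075 for MT-ND2, 1396 and 1240 for MT-ND3, 1923 and 1542 for MT-ND4L, 1612 and 1562 for MT-ND4, and 1542 and 1357 for MT-ND5. The highest gene stood 1.73 and 1.45 times above the lowest. In the controls counts per kb were 903 and 385 for MT-ND1, 780 and 269 for MT-ND2, 257 and 422 for MT-ND3, 347 and 522 for MT-ND4L, 857 and 509 for MT-ND4, and 384 and 402 for MT-ND5. The ratio of the highest to the lowest was 3.51 and 1.94, and the order changed from MT-ND1, MT-ND4, MT-ND2, MT-ND5, MT-ND4L, MT-ND3 in replicate 1 to MT-ND4L, MT-ND4, MT-ND3, MT-ND5, MT-ND1, MT-ND2 in replicate 2.

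At 100 µM the genes were far apart. Counts per kb were 9101 and 5265 for MT-ND4, 3562 and 1802 for MT-ND1, 1633 and 1108 for MT-ND4L, 1616 and 750 for MT-ND2, 1396 and 632 for MT-ND5, and 379 and 382 for MT-ND3. Both libraries gave this same order, and MT-ND4 stood 24.0 and 13.8 times above MT-ND3. Within it, MT-ND4L and MT-ND2 were close in replicate 1, at 1633 and 1616 counts per kb.

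Dividing each value by the mean density over the 13 mtDNA protein genes puts the libraries on 1 scale, where 1 is the mean density. On it MT-ND4 stayed near or above 1 in every library, at 1.02 and 1.04 under DMSO, 1.10 and 1.14 with 10 µM and 1.39 and 1.39 with 100 µM. MT-ND5 stood at 0.459 and 0.819, then 1.05 and 0.988, then 0.213 and 0.167, and MT-ND2 at 0.933 and 0.547, 0.757 and 0.783, and 0.247 and 0.199. MT-ND1 stood at 1.08 and 0.784, 0.914 and 0.934, and 0.543 and 0.477. MT-ND3 ran from 0.308 and 0.860 under DMSO, to 0.953 and 0.903 with 10 µM and 0.0577 and 0.101 with 100 µM. MT-ND4L ran from 0.415 and 1.06 to 1.31 and 1.12 and then to 0.249 and 0.293. At 100 µM the group means in order were 1.39 ± 0.00432 for MT-ND4, 0.510 ± 0.0467 for MT-ND1, 0.271 ± 0.0313 for MT-ND4L, 0.223 ± 0.0338 for MT-ND2, 0.190 ± 0.0321 for MT-ND5 and 0.0794 ± 0.0306 for MT-ND3 (SD, n = 2). The neighbours MT-ND4L and MT-ND2, and MT-ND2 and MT-ND5, differed by less than the sum of their SDs, and the other neighbours by more. At 10 µM the order was MT-ND4L at 1.22 ± 0.133, MT-ND4 at 1.12 ± 0.0272, MT-ND5 at 1.02 ± 0.0452, MT-ND3 at 0.928 ± 0.0348, MT-ND1 at 0.924 ± 0.0136 and MT-ND2 at 0.770 ± 0.0185, with MT-ND4L and MT-ND4, and MT-ND3 and MT-ND1, again within the sum of their SDs. In the controls only MT-ND4, at 1.03 ± 0.00937, had a narrow spread. The other 5 means ran from 0.584 ± 0.390 for MT-ND3 to 0.932 ± 0.209 for MT-ND1, and no neighbours in the control order differed by more than the sum of their SDs.

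**Figure D2:**
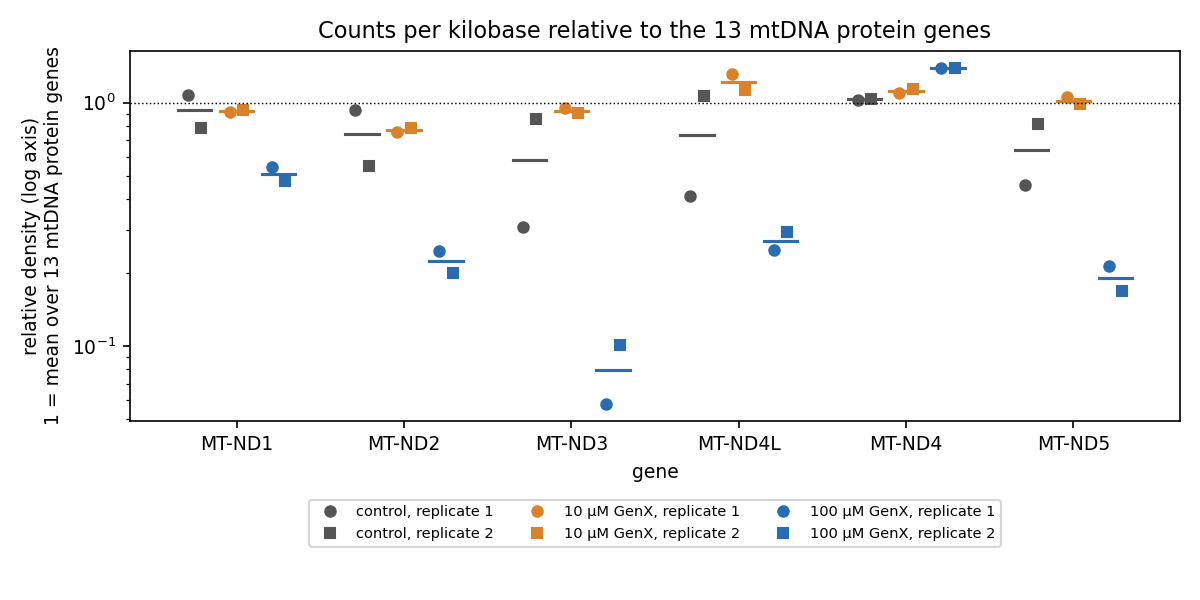
Density of each gene relative to the mean of the 13 mtDNA protein genes (1 is that mean, log axis) by gene, with 1 point per library coloured by dose and shaped by replicate, and bars at the mean of the 2 libraries. The 10 µM points lie between 0.757 and 1.31, and at 100 µM MT-ND4 alone lies above 1.

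The same unevenness was tested with the summed counts of the 13 mtDNA protein genes as library size, called the 13-gene scale here, in the same edgeR model. The 6 genes are part of that sum, so a higher share of some of the 13 genes means a lower share of others. At 100 µM against 10 µM, 3 of 6 genes fell, where 1.86% of all genes tested were called lower and 75.1% higher. The log2 fold change was -2.42 ± 0.63 for MT-ND5 (adjusted p = 0.0105), -3.55 ± 1.17 for MT-ND3 (adjusted p = 0.0196) and -1.79 ± 0.73 for MT-ND2 (adjusted p = 0.0424). MT-ND4L, at -2.17 ± 1.04 (adjusted p = 0.0749), MT-ND1, at -0.86 ± 0.65 (adjusted p = 0.237), and MT-ND4, at 0.31 ± 0.50 (adjusted p = 0.566), did not pass. All but MT-ND4 were lower in both 100 µM libraries than in both 10 µM libraries, and MT-ND4 was higher in both. Of the 7 other mtDNA protein genes, 4 were also lower without overlap, and MT-CO1, MT-CO2 and MT-CO3 were higher. Among them MT-ND6 was called lower, at -2.19 ± 0.85 (adjusted p = 0.0345). MT-CO1, at 1.34 ± 0.47, and MT-CO2, at 1.51 ± 0.51, were called higher. Their mean shares of the 13-gene counts were 13.3% and 6.40% at 10 µM and 33.7% and 18.2% at 100 µM. Of all genes tested, 3.71% were lower and 88.4% higher without overlap. The count of 3 became 0 without any 1 of the 10 µM or 100 µM libraries, and with more of the low genes kept, and 5 without either control.

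Against control, no member passed on the 13-gene scale by the edgeR test. At 10 µM the log2 estimates ran from -0.01 for MT-ND1 to 0.72 ± 1.00 for MT-ND4L, where 38.9% of all genes tested were called lower and 0% higher. Unadjusted p was under 0.05 for 0 of 6, a threshold at which all genes tested were not counted. Both 10 µM libraries were above both controls for 4 of 6 genes on this scale, and for 3.84% of all genes tested. Of the 7 other mtDNA protein genes, 4 were likewise above both controls, and MT-CO2 was below them and was called lower. At 100 µM the estimates of the 6 genes ran from -2.87 ± 1.14 for MT-ND3 (adjusted p = 0.167) to 0.43 ± 0.50 for MT-ND4 (adjusted p = 0.625). Here 0% of all genes tested passed. Unadjusted p was under 0.05 for 3 of 6, again without a count over all genes tested. Both 100 µM libraries were below both controls for 5 of 6 genes, and for 6.51% of all genes tested. MT-ND4 was above both controls, as were 57.1% of all genes tested. Of the 7 other mtDNA protein genes, 4 were likewise below both controls and 2 above. The values for MT-ND5 and MT-ND2 were -1.75 ± 0.61 (adjusted p = 0.145) and -1.73 ± 0.73 (adjusted p = 0.178). Leaving out control replicate 2 changed the calls among the 6 genes and over all genes tested in both comparisons. Leaving out control replicate 1 did so at 100 µM. Without control replicate 2 the estimates for MT-ND3 and MT-ND4L were 1.59 and 1.55 at 10 µM, against 0.67 and 0.72 with all libraries, and -1.96 and -0.61 at 100 µM, against -2.87 and -1.44. DESeq2's Wald test also called 0 of the 6 genes in both comparisons on this scale. Over all genes with an adjusted p it called 1569 of 3118 at 10 µM and 318 of 3056 at 100 µM. The plot of fitted changes sets the 2 scales side by side.

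**Figure D3:**
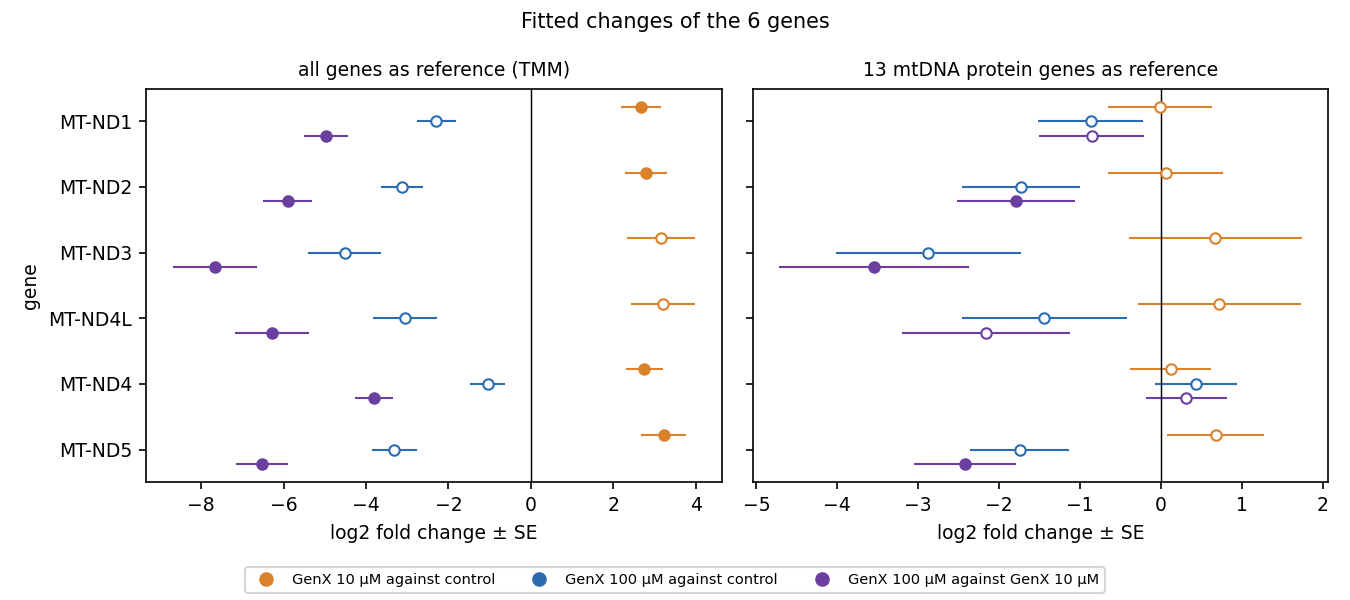
Log2 fold change ± SE (x axis, with a different range in each panel) of each gene (y axis) in the 3 comparisons, with all genes as reference on the left and the 13 mtDNA protein genes as reference on the right. Filled points passed at an adjusted p of 0.05, and MT-ND4 is the only gene with positive estimates in both 100 µM comparisons on the right.

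As a share of the counts on the 13 mtDNA protein genes, the 6 genes took 39.3% (exact 95% binomial interval 38.3% to 40.3%) and 42.5% (41.2% to 43.8%) in the controls. They took 50.9% (50.2% to 51.7%) and 50.2% (49.4% to 50.9%) at 10 µM, and 27.8% (27.5% to 28.1%) and 26.4% (26.0% to 26.8%) at 100 µM. These intervals cover counting error only. The 10 µM share was near the 51.2% that the genes hold of the length. Group means were 40.9% ± 2.29, 50.5% ± 0.558 and 27.1% ± 0.984 (SD, n = 2). The mean was 9.63 percentage points higher at 10 µM than in the controls. The difference was -13.8 points from control to 100 µM and -23.4 points from 10 to 100 µM. No libraries overlapped in any of the 3, and the exact permutation test gave its smallest p, 0.333, for each.

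The gene shares show where the difference lay. MT-ND4 held 12.4% and 12.6% of the 13-gene counts under DMSO, 13.3% and 13.8% with 10 µM and 16.8% and 16.9% with 100 µM. MT-ND5 held 7.30% and 13.02%, then 16.7% and 15.7%, then 3.39% and 2.66%. MT-ND1 held 9.05% and 6.58%, 7.67% and 7.83%, and 4.56% and 4.004%, and MT-ND2 held 8.53% and 5.01%, 6.92% and 7.16%, and 2.25% and 1.82%. MT-ND3 and MT-ND4L, the shortest of the 6, held at most 2.89% and 3.42% in any library, and at 100 µM 0.175% and 0.307%, and 0.649% and 0.765%. Of the counts on the 6 genes alone, MT-ND4 took 60.4% and 63.8% at 100 µM, against 26.1% and 27.5% at 10 µM and 31.5% and 29.5% in the controls. MT-ND5 took the largest part at 10 µM, 32.8% and 31.3%.

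**Figure D4:**
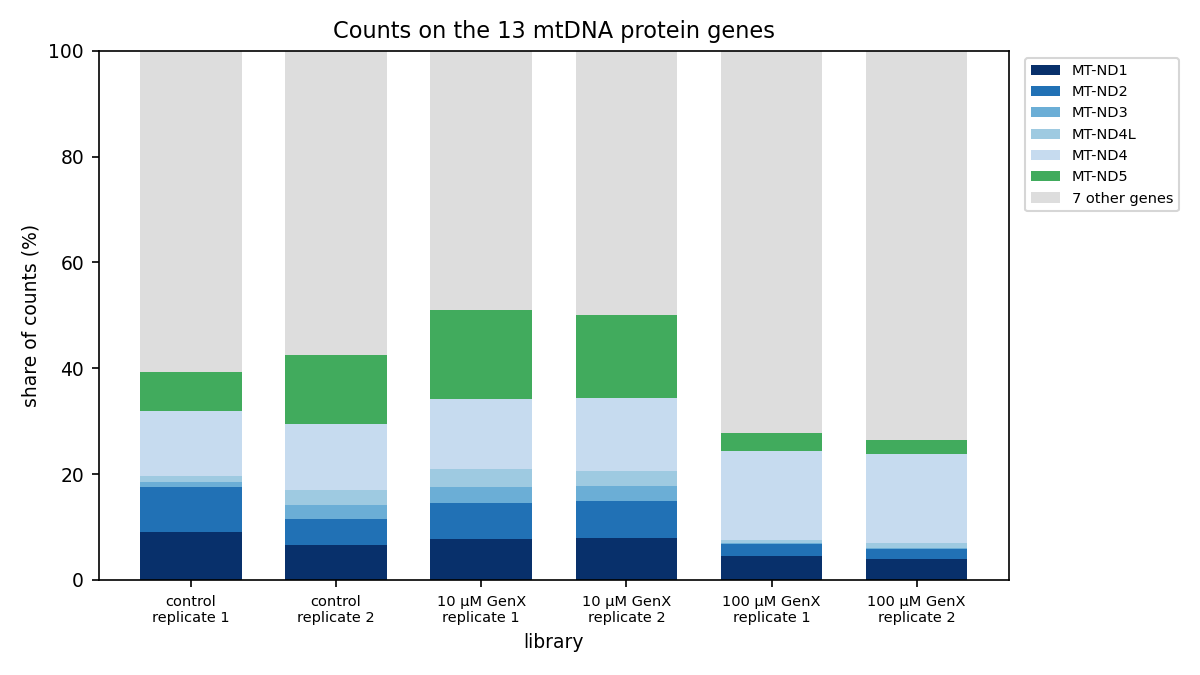
Share of the counts on the 13 mtDNA protein genes (%) held by each of the 6 genes and by the 7 others together, as 1 stacked bar per library. The 6 genes reach 50.9% and 50.2% at 10 µM and 27.8% and 26.4% at 100 µM, where MT-ND4 is the widest band among the 6 genes.

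The pair MT-ND4L and MT-ND4 is of interest because both are read from a shared message. The ratio of MT-ND4L to MT-ND4 in counts per kb was 0.405 and 1.02 under DMSO, 1.19 and 0.987 with 10 µM and 0.179 and 0.210 with 100 µM. It lay between 0.987 and 1.19 in 3 libraries, and both 100 µM libraries were below all others. The geometric mean at 100 µM was 5.58 times lower than at 10 µM. Reads over the 7 shared bases, and reads that run from MT-ND4L into MT-ND4, can be counted to either gene, to both or to neither, and the setting used was not given in the sources used here. MT-ND3, which lies upstream of the pair with 1 transfer RNA gene between, had a ratio to MT-ND4 of 0.300 and 0.828, then 0.866 and 0.794, then 0.0416 and 0.0725. MT-ND5, downstream of MT-ND4, had a ratio to it of 0.448 and 0.789, then 0.957 and 0.868, then 0.153 and 0.120. From 10 to 100 µM these ratios were 15.1 times and 6.71 times lower. The ratio of MT-ND2 to MT-ND1 moved less, from 0.828 and 0.839 at 10 µM to 0.454 and 0.416 at 100 µM, with 0.864 and 0.698 in the controls. Each of these 4 ratios was lower in both 100 µM libraries than in all other libraries, with p = 0.333 by the exact permutation test in every comparison of 100 µM with another dose, the smallest possible.

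The transfer RNA genes beside the messages were counted as well. There are 8 of them, and 7 were summed. MT-TL1, which lies between the large ribosomal RNA gene and MT-ND1, was set apart after its values were seen. The 7 genes had 106 and 145 counts under DMSO, 658 and 601 with 10 µM and 38 and 46 with 100 µM. Per kb this was 34.5% and 74.4% of the density of the 6 complex I genes under DMSO, 94.4% and 93.5% with 10 µM, and 2.23% and 4.94% with 100 µM. At 10 µM these 7 transfer RNA genes were thus counted almost as densely as the 6 genes, and at 100 µM at a small part of that density. MT-TL1 had 179 and 46 counts, 199 and 158, and 1620 and 1036. Its density was above that of each of the 6 genes in every library. In counts per kb MT-TL1 stood at 2387 and 613 under DMSO, 2653 and 2107 with 10 µM, and 21600 and 13813 with 100 µM. With it included the 8 transfer RNA genes stood at 80.2% and 84.7%, 106% and 102%, and 84.2% and 100.4% of the density of the 6 complex I genes. How short mature transfer RNAs pass through library preparation was not measured here.

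**Figure D5:**
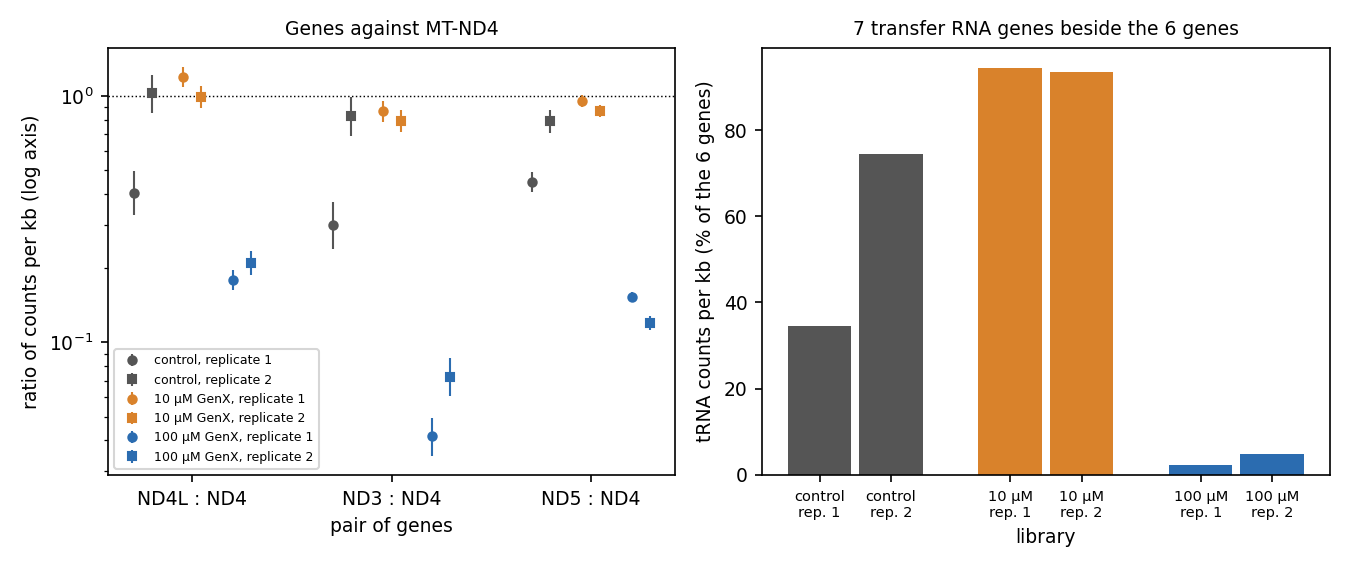
Left, ratio of counts per kb of MT-ND4L, MT-ND3 and MT-ND5 to MT-ND4 (log axis), with 1 point per library and bars for the 95% interval from counting error alone. Right, density of the 7 neighbouring transfer RNA genes as a percentage of the density of the 6 genes, with 1 bar per library, at 94.4% and 93.5% at 10 µM and at 2.23% and 4.94% at 100 µM.

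MT-ND6, the complex I gene on the opposite strand, was set beside the 6 genes. Whether reads were counted by strand is not stated in the sources used here, so its counts may hold reads from the other strand, and the values may not compare the strands. The density of the 6 genes was 1.15 and 0.857 times that of MT-ND6 under DMSO, 0.878 and 0.868 times with 10 µM and 2.51 and 1.85 times with 100 µM. MT-ND6 was also the gene whose levels followed the 6 genes most closely. Among 3174 other genes tested, the Pearson correlation of log2 CPM across the 6 libraries with the mean of the 6 genes was highest for MT-ND6 (r = 0.999), MT-CYB (r = 0.994), MT-TG (r = 0.993), MT-ATP8 (r = 0.993) and MT-TE (r = 0.992). MT-ATP6 ranked 9, MT-CO2 35, MT-CO3 50 and MT-CO1 64. These 6 points are 3 groups that share their library totals, so the values are a description.

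Nuclear copies of mtDNA could take some of these reads. The tables list 187 pseudogenes of the 6 genes, which held 11 and 9 counts under DMSO, 65 and 22 with 10 µM and 36 and 17 with 100 µM. That is 0.150% to 0.764% of the counts on the 6 genes. The share was highest for MT-ND2, at 0.767% to 2.60%, mostly on MTND2P28, and no pseudogene of MT-ND3 had a count in any library. Reads that map equally well to mtDNA and to a copy cannot be traced in these tables.

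The nuclear genes for the other subunits of complex I were set beside the mtDNA-encoded ones. Of 37 such genes, 17 were tested, and 0 passed in either direction in any of the 3 comparisons with all genes as reference, by edgeR's test. Unadjusted p was under 0.05 for 4 genes at 10 µM against control, 2 at 100 µM against control and 6 at 100 µM against 10 µM. All genes tested were not counted at that threshold. The smallest adjusted p was 0.127, 0.257 and 0.129. Over all genes with an adjusted p, DESeq2's Wald test called 526 of 2070, 220 of 2933 and 374 of 2193 in these comparisons. Among the nuclear complex I genes it gave an adjusted p for 8, 15 and 9. It called 1 higher and 2 lower, 1 lower, and 1 lower of them. With all genes as reference their median log2 fold changes were -6.17, 0.13 and 3.63, beside -3.18, 0.35 and 3.52 for all genes tested and 2.97, -3.09 and -6.09 for the 6 mtDNA genes. On the 13-gene scale 9 were lower at 10 µM against control, beside 38.9% of all genes tested. That count was 0 with only the 4 libraries compared, beside 14 of all 3086 genes, and 2 with the replicate number as a block, beside 374 of 3180. By DESeq2's Wald test it was 10, beside 1566 of 3118. With no filter on low counts it was 3 of 37, beside 454 of 19632. With a mean of at least 5 CPM as the filter it was 5 of 36, beside 993 of 11953. Without 1 library the median log2 fold change of the nuclear complex I genes ran from -6.58 to -5.16, against -5.46 with all libraries. At 100 µM against 10 µM 14 were higher on that scale, beside 75.1% of all genes tested. With no filter on low counts this was 9 of 37, beside 1605 of all 19632 genes. With a mean of at least 5 CPM as the filter it was 19 of 36, beside 2760 of 11953. Without 1 library their median log2 fold change ran from 7.24 to 9.62, against 7.61 with all libraries. Summed CPM of the 37 genes was 1525 and 12686 under DMSO, 459 and 716 with 10 µM, and 3410 and 3804 with 100 µM. At 10 µM only 20 and 21 counts stand behind those sums, on 7 and 10 genes. By mean level the highest were NDUFB9, NDUFA1 and NDUFB7, accessory subunits, and NDUFB9 stood at 108 and 5505 CPM under DMSO, 45.9 and 0 CPM with 10 µM and 621 and 253 CPM with 100 µM. Control replicate 2 carried this ranking, with NDUFA1 at 20.8 and 3155 CPM and NDUFB7 at 8.31 and 1693 CPM in the controls. None of 17 complex I assembly factor genes had enough counts to be tested. The highest by mean level were NDUFAF3, COA1 and NDUFAF2, with NDUFAF3 at 29.1 and 32.9 CPM, 0 and 409 CPM, and 18.7 and 34.4 CPM in the same order. Its 409 CPM rests on 12 counts in 1 library. Of 21 nuclear genes that act on mitochondrial RNA, 6 were tested, and 0 passed edgeR's test in any comparison with all genes as reference. Unadjusted p was under 0.05 for 0, 3 and 2 of them, again without a count over all genes tested. DESeq2's Wald test gave an adjusted p for 3, 4 and 3 of them and called 0. On the 13-gene scale 3 of the 6 were higher at 100 µM against 10 µM, beside 75.1% of all genes tested. With only the 4 libraries compared it was 6 of 6, beside 2614 of all 3179 genes. With no filter on low counts it was 2 of 19, beside 1605 of 19632. Without 1 library the median log2 fold change of the 6 tested ran from 6.44 to 9.98, against 6.88 with all libraries. The highest by mean level were LRPPRC, which stabilises mtDNA messages, POLRMT, the mitochondrial RNA polymerase, and TBRG4. LRPPRC was at 12.5 and 0 CPM, 253 and 0 CPM, and 260 and 280 CPM in order of dose. POLRMT was at 37.4 and 16.4 CPM, 390 and 0 CPM, and 130 and 185 CPM, and TBRG4 at 175 and 65.7 CPM, 230 and 0 CPM, and 86.4 and 123 CPM. All 3 were at 0 in the shallowest library, where 3 counts are worth 102 CPM.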

How the data were processed

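The deposited values were raw, whole-number read counts for each gene, in 1 featureCounts-style table per library. The submitters' processing notes name FastQC, STAR, featureCounts, DESeq2 and GRCh38. The annotation release, whether strand was used in counting, and how reads over several genes or places were counted are not given in the sources used here. Ribosomal depletion and stranded library preparation are stated in the labels' protocols. The 35 mtDNA genes listed were 13 protein genes and 22 transfer RNA genes. The ribosomal RNA genes of mtDNA were not among them and were not analysed here.

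Symbols came from a reference table that held 56410 of 57500 identifiers, and sequences from GENCODE transcripts on GRCh38. Counts were tested with edgeR 4.0.16 in R 4.3.3 (filterByExpr on the groups, TMM, robust quasi-likelihood fit of all 6 libraries, Benjamini-Hochberg over 3180 genes, threshold 0.05), once with all genes as reference and once with the summed counts of the 13 mtDNA protein genes as library size. SE is the size of the log2 fold change divided by the square root of F. An exact permutation test (scipy 1.17.1, two-sided) was used for shares and ratios. DESeq2 1.42.0 was an alternative. Replicates differed beyond sampling noise, with a chi-square per degree of freedom of 39.4, 12.9 and 35.2 in order of dose. The edgeR fit was run on simulated data in which only genes other than the 13 mtDNA protein genes were changed. Recovery of a change in the 6 genes was not simulated. Named were the 6 genes, the other mtDNA protein genes, the transfer RNA genes beside them, and from each nuclear list those that passed with all genes as reference and the 3 with the highest mean CPM. The 5 genes most like the 6 were also named. Genes and lists were chosen with earlier results of these data known.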

Additional observations from a re-analysis of the deposited data

How the results depend on the processing

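The directions of the 6 genes with all genes as reference held under every setting run, except MT-ND4 at 100 µM against control, which was 0.052 (log2) with a mean of at least 5 CPM, while the counts of genes that passed moved often. At 10 µM against control the 4 became 0 with DESeq2's Wald test on every gene with a count (added after seeing the data), library sizes alone, a mean of at least 5 CPM or no filter, and 2 with only the 4 libraries compared; leaving out 1 library gave 0 to 6. At 100 µM against control the 0 became 5 with DESeq2's Wald test and 2 with DESeq2 size factors (0 to 6 without 1 library). At 100 against 10 µM the 6 became 0 with no filter (0 to 6 without 1 library). On the 13-gene scale the count was 0 to 3 at 10 µM and 0 to 4 at 100 µM against control without 1 library. At 100 against 10 µM the 3 became 0 with a mean of at least 5 CPM, no filter or the 6 genes as library size, and 5 with only the 4 libraries compared (0 to 5 without 1 library). A fit without 1 library assumes that the lone library varies like the others.

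Deviations of same-numbered libraries from their group means correlated at 0.000331, 0.00315 and -0.0222 over the genes tested. Counting noise lowers such values, so they cannot exclude that replicate numbers pair the libraries. With the replicate block the counts were 6, 5 and 6 with all genes as reference and 0, 0 and 2 on the 13-gene scale.

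Small 13-gene estimates changed sign. At 10 µM against control MT-ND1 was 0.0054 with the block, -0.22 to 0.24 without 1 library (above 0 without control replicate 1 and, at 0.0029, 10 µM replicate 1), and MT-ND2 was -0.28 to 0.49, below 0 without control replicate 2. With the 6 genes as library size MT-ND2 was -0.26 and MT-ND4 -0.19 there, and MT-ND1 0.040 at 100 against 10 µM. The cause was not tested.

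The control libraries moved single estimates. At 10 µM against control MT-ND3 was 2.44 without replicate 1 and 4.64 without replicate 2. Scaling moved the median of all genes. At 10 µM against control, 100 µM against control and 100 against 10 µM it was (log2) -3.18, 0.35 and 3.52 by TMM, -2.66, -0.05 and 2.54 by DESeq2 size factors, -2.88, 1.006 and 3.89 unscaled, and -5.25, 1.71 and 7.40 on the 13-gene scale. Over all genes tested the 19 calls at 10 µM against control became 526 with DESeq2's Wald test, 95 with a mean of at least 5 CPM, 75 with the block, 12 with only the 4 libraries, 7 with no filter or unscaled, and 0 to 624 without 1 library. The 91 at 100 against 10 µM became 374, 291, 136, 797, 3 (no filter), 159 (unscaled) and 0 to 881. The 0 at 100 µM against control became 220 with DESeq2's Wald test, 22 with the block, 4 with DESeq2 size factors and 0 to 43 without 1 library. DESeq2's Wald test on every gene with a count gave 16, 503 and 3 in these comparisons. On the 13-gene scale the 1237 at 10 µM became 454 with no filter, 374 with the block, 14 with only the 4 libraries and 0 to 1807 without 1 library, the 2447 at 100 against 10 µM became 1612 with no filter and 0 to 2691 without 1 library, and the 0 at 100 µM became 318 with DESeq2 and 0 to 1524 without 1 library. Differences in shares kept their sign in 36 of 36 alternatives, with the share of all counts at 100 µM against control between -3.00 and -0.646 points. Depth of 29350 counts in the shallowest library limits the nuclear lists more than the 6 genes.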
